A study of Mus musculus with 18 samples.

Results

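The osteoclast and cell fusion genes Acp5, Ctsk, Atp6v0d2, Dcstamp, Ocstamp, Itgb3, Nfatc1, Oscar and Calcr were followed in mouse macrophages that carry PPARg T166A or wild-type (WT) PPARg, a nuclear receptor that responds to lipids. They were chosen by name, and all 9 were found in both count tables, among 26165 genes in the table of bone marrow-derived macrophages (BMDM) and 26149 in the table of skin wound macrophages. The 18 libraries formed 4 groups. Skin wound macrophages were cells held by anti-F4/80 microbeads from enzyme-digested dorsal skin at day 6 after injury, from T166A mice (n = 6) and WT mice (n = 6). BMDM were bone marrow cells of T166A mice (n = 3) or C57BL/6J mice (WT, n = 3), differentiated for 7 days with 50 ng/ml of M-CSF, the growth factor that all BMDM shared. BMDM replicates 1 and 2 were labelled batch B1 and replicate 3 batch B2 in both genotypes, and no batch was given for skin. The labels give no age or sex, do not say whether the mutation was present in every tissue, and do not say that replicates came from separate mice or cultures. The p-values therefore reflect the spread among libraries alone, which may be technical. The extraction text in the labels speaks of adipocytes, although every library is labelled as macrophages.

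Osteoclasts are bone-resorbing giant cells that arise when precursors of the macrophage lineage fuse. M-CSF and the cytokine RANKL drive this step through the transcription factor NFATc1, and the mature cell acidifies a sealed pit on the bone surface and secretes proteases into it. Macrophages outside bone use part of the same programme when they form giant cells around material that they cannot engulf, and several of these genes are also used by single macrophages and by cells of other kinds.

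Promoter sequences are shown for Ctsk and Acp5, whose levels moved together across the skin libraries as described further on. Of the 9 genes, 4 had an entry in the promoter table (RefSeq, build GRCm38.p6), with 7 promoters of 300 bases each. The promoter table begins 250 bases before the transcript start, and positions are counted from 0 at the start base. Capitals mark every match, on either strand, to the NFAT core GGAAA or to the E-box CATGTG. The Ctsk promoter lies at chr3:95498960-95499259 on the plus strand, and the Acp5 promoter at chr9:22130549-22130848 on the minus strand.
Ctsk: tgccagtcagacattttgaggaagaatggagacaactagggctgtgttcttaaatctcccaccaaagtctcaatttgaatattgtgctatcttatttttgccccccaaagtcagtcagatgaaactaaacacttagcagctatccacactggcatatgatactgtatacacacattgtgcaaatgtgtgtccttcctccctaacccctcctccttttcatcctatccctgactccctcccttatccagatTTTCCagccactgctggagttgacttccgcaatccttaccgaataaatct
Acp5: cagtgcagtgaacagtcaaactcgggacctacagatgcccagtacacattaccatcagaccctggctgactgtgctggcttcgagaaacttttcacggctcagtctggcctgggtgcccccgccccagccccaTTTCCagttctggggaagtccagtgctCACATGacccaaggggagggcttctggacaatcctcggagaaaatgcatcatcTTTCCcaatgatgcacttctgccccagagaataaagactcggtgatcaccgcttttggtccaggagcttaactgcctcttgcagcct
The Ctsk window held 1 match to GGAAA, at positions 0 to 4, and the Acp5 window held 2, at -117 to -113 and -37 to -33, with 1 CATGTG match at -90 to -85 and no overlap between them. GGAAA was found in 61.3% of all 32851 promoters and CATGTG in 14.2%. None of the 7 windows matched the AP-1 motif TGANTCA, the E-box CACGTG or the direct repeat bound by PPAR with its partner RXR. That repeat is a pair of AGGTCA letters with 1 free base between them, and both strands were searched. These motifs were found in 7.81%, 7.15% and 0.0396% of all promoters, in that order. Acp5 has 2 further promoters in the table, each with 1 GGAAA match and no CATGTG match, and the one shown is that with the most matches. Its starts cannot be ranked here, because its 3 transcript isoforms held nearly equal totals in skin (96330, 96321 and 96245 counts).

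Values were raw counts per transcript, and each gene was represented by the isoform with the highest summed counts per 1000000 (CPM). CPM were scaled to total counts, while the edgeR tests also scaled libraries by TMM. A fitted fold change can thus differ from the ratio of CPM means, also in sign. Depth ran from 29357354 to 38774475 gene counts in skin and from 40072513 to 44152639 in BMDM. The 9 macrophage markers summed to 9281 to 12180 CPM in skin libraries and to 31780 to 45810 CPM in BMDM. The skin fraction also held markers of other cells, and 8 fibroblast markers summed to 6069 to 11390 CPM there. In bulk RNA, fewer cells of a type and less RNA per cell cannot be told apart, and this applies to every result here.

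**Figure D1:**
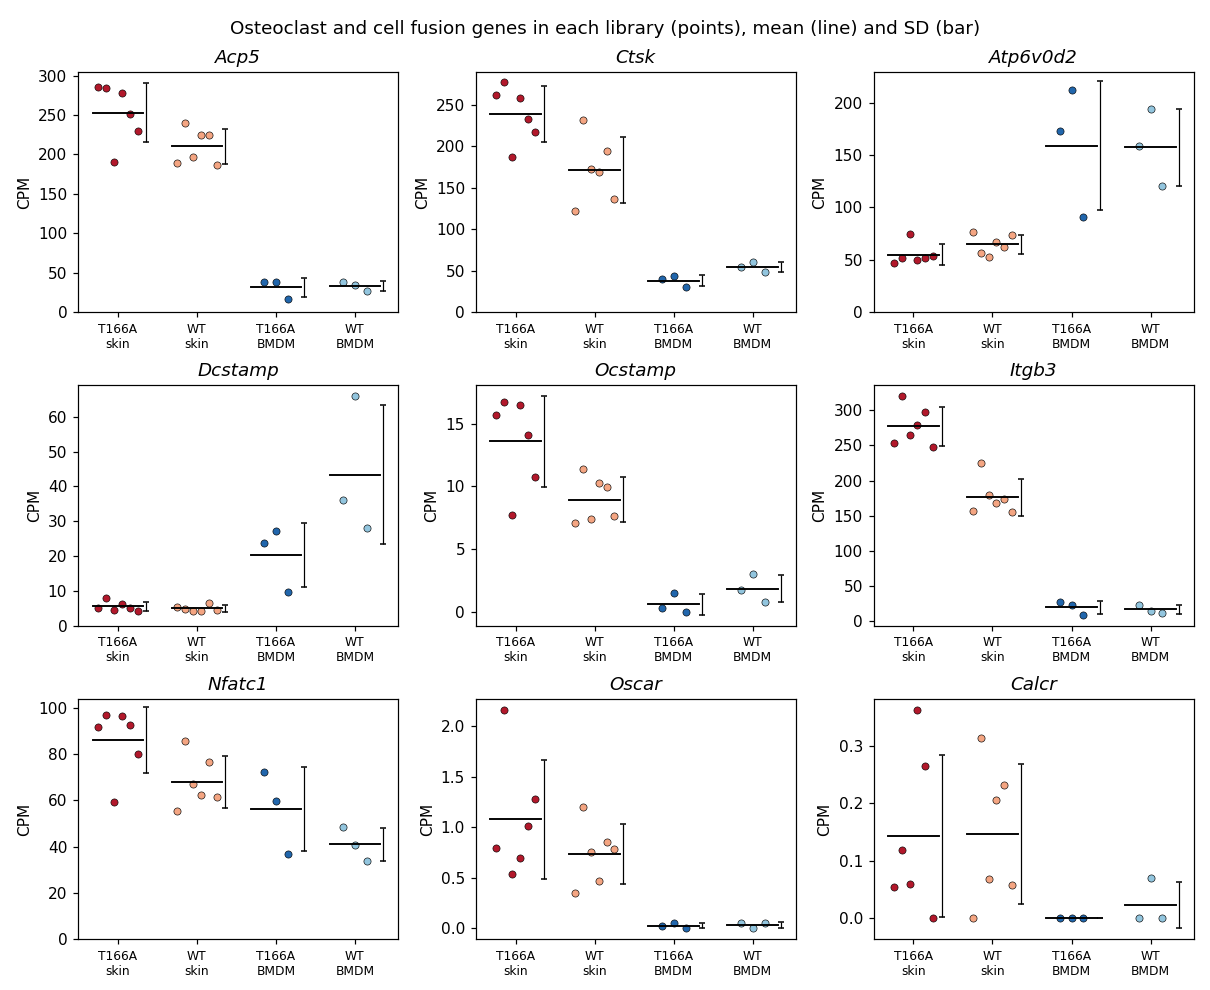
CPM of each gene in every library (points) by group, T166A left of WT, with the group mean (line) and SD (bar); n = 6 in skin groups and n = 3 in BMDM groups. Itgb3 was the 1 gene whose skin groups did not overlap, at 247.5 to 320.1 CPM in T166A and 154.5 to 225.4 CPM in WT.

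In skin wound macrophages, the integrin gene Itgb3 and the fusion gene Ocstamp were higher in T166A than in WT, and the other tested genes did not pass the test. The low-count filter kept 8 of the 9 genes, and Calcr was not tested. The call was an adjusted p under 0.05 (edgeR quasi-likelihood test, Benjamini-Hochberg over all genes). Of the 8 tested genes 2 were called higher and 0 lower, where 12.7% of all 15473 tested genes were called higher and 13.2% lower. The median log2 fold change was 0.33 over these 8 and 0.01 over all tested genes.

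Itgb3 encodes the beta 3 integrin chain, which pairs with alpha V in the adhesion ring of osteoclasts and is also made by endothelial cells and platelets. In T166A skin its lowest, median and highest libraries held 247.5, 272.3 and 320.1 CPM, against 154.5, 170.6 and 225.4 CPM in WT skin. Every T166A library exceeded every WT library, which was so for 8.83% of all tested genes. Itgb3 averaged 277.2 ± 27.9 CPM in T166A and 176.1 ± 26.0 CPM in WT (SD, n = 6 each), and its log2 fold change was 0.57 (edgeR adjusted p = 2.05e-05, SE 0.08). Over 21 alternatives the log2 fold change ran from 0.53 to 0.64 and the adjusted p from 5.93e-11 to 0.000169.

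Markers of endothelial cells moved with Itgb3. Of 6 endothelial markers 5 were called higher in T166A skin and 0 lower, where 12.7% of all genes were called higher, and their sum ran from 1451 to 2087 CPM in T166A libraries and from 970 to 1370 CPM in WT libraries. Vwf, the von Willebrand factor gene of endothelial cells and platelets, averaged 344.8 ± 49.7 CPM in T166A and 176.0 ± 45.4 CPM in WT (SD, n = 6 each). The part of such cells in the Itgb3 result was not tested.

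Ocstamp, a membrane protein needed for the fusion of osteoclast precursors, had a lowest, median and highest value of 7.75, 14.9 and 16.7 CPM in T166A skin, against 7.12, 8.79 and 11.4 CPM in WT skin. Its groups overlapped, because T166A replicate 3 lay within the WT range and T166A replicate 6, at 10.8 CPM, below the highest WT library. Ocstamp averaged 13.6 ± 3.60 CPM in T166A and 8.95 ± 1.79 CPM in WT (SD, n = 6 each), and the log2 fold change was 0.51 (SE 0.17, edgeR adjusted p = 0.0424). The call was close to the threshold. It was lost without a low-count filter (adjusted p = 0.0717) and when T166A replicate 1, 2, 4 or 5 or WT replicate 1, 3, 5 or 6 was left out (adjusted p from 0.0565 to 0.0922).

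Dcstamp, the partner of Ocstamp in fusion, overlapped between genotypes over most of its range. Its lowest, median and highest libraries held 4.19, 5.02 and 7.99 CPM in T166A skin, against 4.18, 4.65 and 6.60 CPM in WT skin, with 0.06 as log2 fold change (SE 0.15, edgeR adjusted p = 0.807). Atp6v0d2 encodes a subunit of the vacuolar proton pump that also takes part in fusion. It had 46.8, 51.3 and 74.7 CPM as its lowest, median and highest values in T166A skin, against 52.7, 64.2 and 76.2 CPM in WT skin. The groups overlapped, chiefly through T166A replicate 3 at 74.7 CPM and WT replicate 3 at 52.7 CPM, and the log2 fold change of -0.33 did not pass (SE 0.13, edgeR adjusted p = 0.0876).

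The secreted enzymes and the transcription factor had higher means in T166A skin and did not pass the test. Acp5, the tartrate-resistant acid phosphatase that serves as the classic stain for osteoclasts, had 190.0, 264.9 and 285.9 CPM in T166A skin, against 187.2, 210.2 and 240.3 CPM in WT skin, each given as lowest, median and highest. Ctsk, the collagen-cutting protease cathepsin K, had 186.8, 245.1 and 277.1 CPM in T166A skin, against 121.5, 170.6 and 232.0 CPM in WT skin. Nfatc1, the transcription factor, had 59.5, 92.2 and 96.9 CPM in T166A skin, against 55.5, 64.7 and 85.8 CPM in WT skin. For each of these genes, T166A replicate 3 was the lowest T166A library and WT replicate 2 the highest WT library, and the groups overlapped. The log2 fold changes were 0.18 for Acp5 (SE 0.09, edgeR adjusted p = 0.154), 0.40 for Ctsk (SE 0.14, edgeR adjusted p = 0.0626) and 0.26 for Nfatc1 (SE 0.12, edgeR adjusted p = 0.143).

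The remaining receptors were scarce. Oscar, a collagen-binding receptor that costimulates osteoclast formation, had 0.539, 0.900 and 2.16 CPM as its lowest, median and highest values in T166A skin, against 0.349, 0.765 and 1.20 CPM in WT skin. It had 18 to 73 counts in a T166A library and 12 to 38 in a WT library, and the groups overlapped. Its log2 fold change was 0.47 (SE 0.35, edgeR adjusted p = 0.351). Calcr, the receptor for calcitonin, summed to 31 counts over the T166A skin libraries and 30 over the WT skin libraries, with 0 to 13 in a T166A library and 0 to 10 in a WT library.

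**Figure D2:**
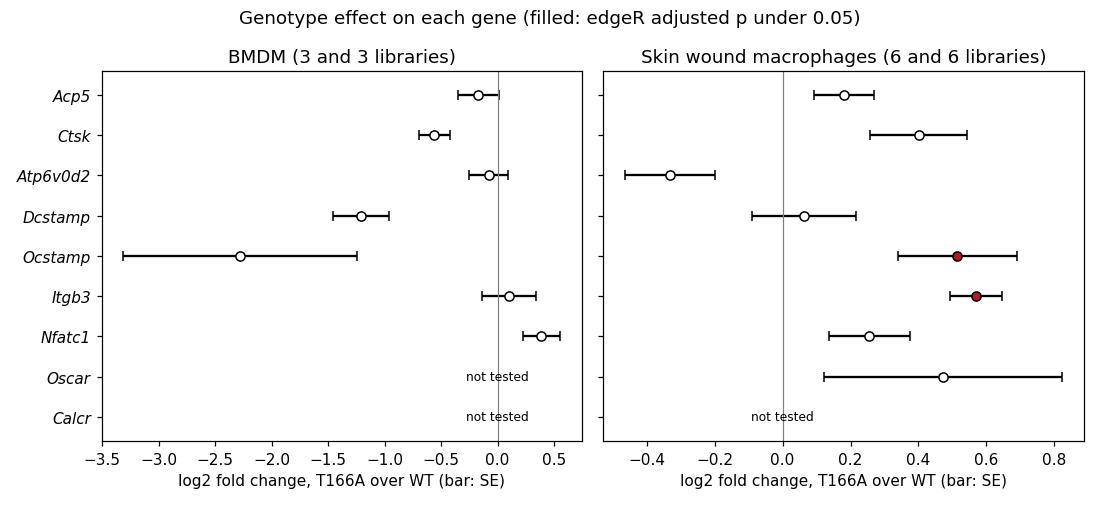
Log2 fold change of T166A over WT for each gene (points; bars are the SE) in BMDM (3 libraries a genotype) and in skin wound macrophages (6 libraries a genotype); filled points passed an edgeR adjusted p under 0.05, and the axes of the panels differ. In skin Itgb3 at 0.57 and Ocstamp at 0.51 are filled, and in BMDM no point is.

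By limma-voom 5 of the 8 genes were called in skin, where 29.7% of all genes were. DESeq2 called 3, where 28.1% of all genes were called, and edgeR with replicate numbers as a block 3, where 29.4% were. The number of genes called in skin depended on T166A replicate 3. Without it 6 of the 8 genes were called, where 25.1% of all genes tested without it were called: Itgb3 and Ocstamp, and also Acp5 (log2 fold change 0.25, edgeR adjusted p = 0.00686), Ctsk (0.46, 0.0360), Nfatc1 (0.34, 0.00423) and Atp6v0d2, which was lower in T166A (-0.45, 0.00151). In T166A replicate 3, the fibroblast markers summed to 6069 CPM and the keratinocyte markers to 120.7 CPM, both the lowest T166A values, while the other T166A libraries had up to 11390 and 236.5 CPM. Its adipocyte markers (710.5 CPM) and neutrophil markers (51.3 CPM) were the highest T166A values. Which of these differences, if any, bears on the calls was not tested. WT replicate 2 had 274.3 CPM of keratinocyte markers, the highest of the 12 libraries, and leaving it out brought Ctsk past the threshold (0.50, edgeR adjusted p = 0.0144). With the fibroblast and keratinocyte marker scores as covariates, the same 6 genes were called, where 31.4% of all genes were. The log2 fold changes in that fit were 0.21 for Acp5 (edgeR adjusted p = 0.000291), 0.44 for Ctsk (3.42e-08), 0.28 for Nfatc1 (7.11e-05) and -0.36 for Atp6v0d2 (0.000177).

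The genes also varied together among the skin libraries. Acp5 and Ocstamp were the closest pair, with a Pearson r of 0.988 over the 12 libraries and 0.985 after the mean of each genotype was removed. Nfatc1 followed Acp5 (0.932, and 0.895 within genotypes) and Ctsk (0.931, and 0.898), and Acp5 followed Ctsk (0.903, and 0.851). Atp6v0d2 ran the other way, with an r of -0.892 against Nfatc1 (-0.849 within genotypes) and -0.831 against Acp5 (-0.761). These values describe libraries that also share their makeup of cells and their depth. Dcstamp was less like the others, with r from -0.269 against Atp6v0d2 to 0.538 against Acp5.

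**Figure D3:**
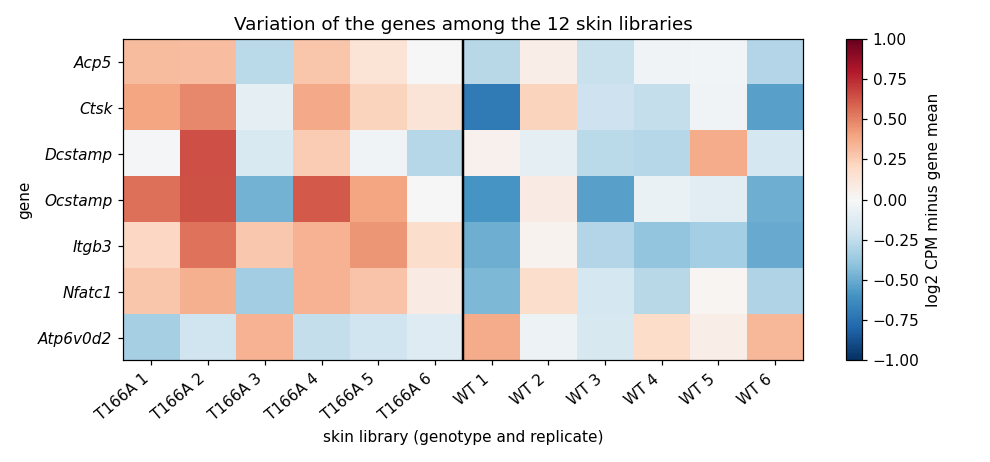
Log2 CPM of each gene with a mean of at least 1 CPM in the 12 skin libraries, minus the mean of that gene over them (colour), with T166A libraries left of the line and WT libraries right of it; Oscar and Calcr are not drawn. The columns of T166A replicate 3 and WT replicates 1 and 6 are low for Acp5, Ctsk, Ocstamp and Nfatc1 and high for Atp6v0d2.

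Among all genes with a mean of at least 5 CPM in skin, the one most like Acp5 over the 12 libraries was Ocstamp itself, and the reverse also held (r = 0.988). The gene most like Itgb3 was Plxnd1, a plexin of endothelial cells (r = 0.988), followed by Larp1 (r = 0.985) and Vwf (r = 0.984). The r values of this paragraph pool both genotypes, so genes that differ between genotypes can be alike for that reason alone. Ctsk was most like Fa2h (r = 0.980), a fatty acid hydroxylase, and Nfatc1 most like Nomo1 (r = 0.977). Atp6v0d2 was most like Cd84, a leukocyte surface receptor (r = 0.958), and Dcstamp most like Carnmt1 (r = 0.887).

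In BMDM none of the genes passed the test between genotypes. Ctsk and Dcstamp had lower means in T166A, with groups that did not overlap. The filter kept 7 of the 9 genes. Of these 7, 0 were called by the edgeR test, where 0.0609% of all 13139 tested genes were called higher and 0.00761% lower. At an unadjusted p under 0.05 there were 3 (Ctsk, Dcstamp and Nfatc1), where 12.8% of all genes were past it. The trend of log2 CPM, relative to each gene's mean, with transcript length differed between genotypes within each batch. Its Spearman correlation was 0.408 and 0.382 in T166A replicates 1 and 2, against 0.0575 and -0.36 in WT. In replicate 3 it was -0.163 in T166A and -0.445 in WT. With the trend removed, the log2 fold change was -0.40 for Ctsk, -1.10 for Dcstamp and 0.26 for Nfatc1. In the main fit these were -0.56, -1.21 and 0.39.

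Dcstamp had 23.7, 27.3 and 9.70 CPM in T166A replicates 1 to 3, against 36.1, 66.0 and 28.1 CPM in WT replicates 1 to 3. Ctsk had 40.1, 42.9 and 30.7 CPM in T166A, against 54.6, 60.0 and 48.1 CPM in WT. For both genes every T166A library was below every WT library, which was so for 5.85% of all tested genes. The log2 fold change was -1.21 for Dcstamp (SE 0.25, edgeR adjusted p = 0.168), at -0.94 within batch B1 and -1.67 within batch B2. That of Ctsk was -0.56 (SE 0.14, edgeR adjusted p = 0.196), at -0.46 within B1 and -0.79 within B2. The limma-voom test called 0 of the 7 genes. DESeq2 called both Dcstamp and Ctsk lower (adjusted p = 0.000924 for Dcstamp and 0.0128 for Ctsk), where it called 1.12% of all genes lower.

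Ocstamp was close to absent in BMDM, with 12, 67 and 0 counts in T166A replicates 1 to 3, against 73, 129 and 33 counts in WT. These were 0.272, 1.54 and 0 CPM in T166A and 1.73, 3.02 and 0.824 CPM in WT, and T166A replicate 2 lay within the WT range. Its log2 fold change of -2.28 had a wide error (SE 1.03, edgeR adjusted p = 0.402) and ran from -4.02 without T166A replicate 2 to -1.40 without T166A replicate 3. Leaving out replicate 3 of either genotype takes batch B2 out of the comparison, and B1 alone also gave -1.40.

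Nfatc1 had 72.4, 59.7 and 36.7 CPM in T166A BMDM, against 48.3, 40.7 and 34.0 CPM in WT BMDM, and the groups overlapped through replicate 3. Its log2 fold change was 0.39 (SE 0.16, edgeR adjusted p = 0.376), at 0.57 within B1 and -0.03 within B2. Itgb3 had 26.8, 22.1 and 8.89 CPM in T166A, against 23.3, 14.6 and 11.4 CPM in WT, and the log2 fold change was 0.10 (SE 0.24, edgeR adjusted p = 0.880), at 0.40 within B1 and -0.49 within B2. In both genotypes replicate 3, the B2 library, was the lowest.

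Atp6v0d2 had 172.9, 212.3 and 91.2 CPM in T166A BMDM, against 158.1, 193.9 and 120.5 CPM in WT BMDM, and the log2 fold change was -0.08 (SE 0.18, edgeR adjusted p = 0.876). Acp5 had 38.1, 38.6 and 17.1 CPM in T166A, against 38.3, 33.9 and 26.2 CPM in WT, and the log2 fold change was -0.17 (SE 0.18, edgeR adjusted p = 0.722). Both differed in sign between batches, with 0.13 in B1 and -0.54 in B2 for Atp6v0d2 and 0.10 in B1 and -0.75 in B2 for Acp5. T166A replicate 3 stood apart from the other BMDM, with fibroblast markers at 432 CPM where the others had 4.31 to 48.5 CPM, and it was the lowest of the 6 libraries for Acp5, Ctsk, Atp6v0d2, Dcstamp, Ocstamp and Itgb3. The part of that library's makeup was not tested. Oscar had 3 counts over the T166A libraries and 4 over the WT libraries, and Calcr had 0 counts over the T166A libraries and 3 over the WT libraries, so no genotype difference could be detected for either at this depth.

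The genotype effects of the sources were then set against each other by an interaction test over all 18 libraries. A positive value means a higher T166A over WT fold in skin than in BMDM. Of the 8 genes tested 3 were called, where 14.3% of all 16586 tested genes were. Ctsk had an interaction of 1.0 on the log2 scale (SE 0.21, edgeR adjusted p = 0.00423), Dcstamp 1.31 (SE 0.29, edgeR adjusted p = 0.00527) and Ocstamp 2.38 (SE 0.63, edgeR adjusted p = 0.0199). For Ctsk and Ocstamp the fold was above 1 in skin and below 1 in BMDM, while for Dcstamp the log2 fold change was 0.06 in skin and -1.21 in BMDM. The fit shares 1 spread (biological coefficient of variation 0.179) between sources that had 0.279 in BMDM and 0.133 in skin. With limma-voom quality weights 0 of the 8 were called (Ctsk 0.95 with adjusted p = 0.0532, Dcstamp 0.87 with 0.0817, Ocstamp 1.93 with 0.456), where 5.73% of all genes were. The Ocstamp call was also lost without BMDM T166A replicate 1 (1.86, edgeR adjusted p = 0.0630) or BMDM WT replicate 2 (2.14, edgeR adjusted p = 0.0789), and the value was 4.14 without BMDM T166A replicate 2 (edgeR adjusted p = 0.00034).

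The other interactions did not pass: Acp5 0.39 (edgeR adjusted p = 0.139), Itgb3 0.50 (0.103), Atp6v0d2 -0.21 (0.576), Nfatc1 -0.15 (0.753) and Oscar 0.97 (0.668). That of Itgb3 passed with the length trend removed (0.77, edgeR adjusted p = 0.0119), without BMDM T166A replicate 1 (0.65, edgeR adjusted p = 0.0467) and without BMDM WT replicate 2 (0.73, edgeR adjusted p = 0.00803).

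Each of the 8 genes tested between cell sources differed. Acp5, Ctsk, Itgb3, Nfatc1, Ocstamp and Oscar were higher in skin than in BMDM in both genotypes, and Atp6v0d2 and Dcstamp were lower. All 8 were called in each genotype, where 83.6% of all 16586 genes were called in WT and 82.2% in T166A, so most genes of either table differed in this way. The median of all genes was 0.36 on the log2 scale in both genotypes, and the values below are to be read against it. Cell source, count table and preparation cannot be told apart here.

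Itgb3 had a log2 fold change of skin over BMDM of 3.90 in T166A (SE 0.17) and 3.40 in WT (SE 0.17). Acp5 had 3.02 in T166A (SE 0.14) and 2.63 in WT (SE 0.14), and Ctsk had 2.59 in T166A (SE 0.17) and 1.59 in WT (SE 0.16). Ocstamp had 4.79 in T166A (SE 0.52) and 2.41 in WT (SE 0.44), on few BMDM counts. The Ocstamp value in T166A was 6.52 without BMDM T166A replicate 2, and that in WT was 1.80 with the length trend removed. Without BMDM WT replicate 3 the Ocstamp value was 6.54 in T166A and 4.55 in WT. In that fit the batch term rested on BMDM T166A replicate 3 alone, which had 0 Ocstamp counts. Both values therefore depend on that library and do not measure the effect of the library left out. In the opposite direction, Dcstamp had -1.84 in T166A (SE 0.20) and -3.15 in WT (SE 0.20), and Atp6v0d2 had -1.54 in T166A (SE 0.15) and -1.33 in WT (SE 0.15). The largest edgeR adjusted p among these was 7.86e-05, that of Ocstamp in WT. Removing each library's trend with transcript length, which ran from -0.445 to 0.408 as a Spearman correlation in BMDM, moved Itgb3 to 2.91 in T166A and 2.14 in WT, below Acp5 at 3.27 in T166A and 3.03 in WT, and moved the median of all genes in WT to -0.15.

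Oscar and Calcr rested on few BMDM counts, so their summed counts were set against summed depth. The ratio of skin over BMDM for Oscar was 45.9 in T166A (95% counting interval 15.5 to 224) and 22.8 in WT (8.71 to 84.7). Calcr was at least 6.29-fold higher in T166A skin than in T166A BMDM, where it had 0 counts and 3 counts over the group were taken as the limit, and its ratio in WT was 6.15 (1.91 to 31.5), with all 3 BMDM counts from WT replicate 2. These intervals cover counting error only.

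**Figure D4:**
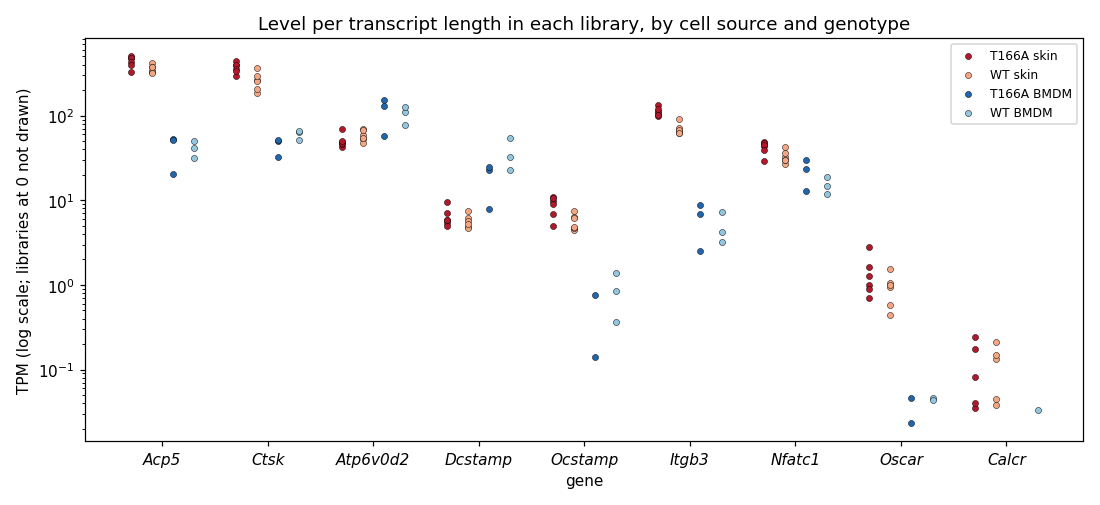
Transcript level per length (TPM, log axis) of each gene in every library, with skin groups left of BMDM groups and T166A left of WT within each source; libraries at 0 are not drawn. Atp6v0d2 leads in BMDM at a mean of 113 TPM in T166A and 105 TPM in WT, and Acp5 leads in skin at 439 TPM in T166A and 360 TPM in WT.

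Compared per length, as TPM (transcript level scaled for length and depth), the order of the genes differed between sources. In skin Acp5 was highest at 439 ± 65.5 TPM in T166A and 360.0 ± 39.7 TPM in WT (SD, n = 6 each), followed by Ctsk at 370 ± 52.7 TPM in T166A and 261 ± 63.1 TPM in WT. Itgb3 came next at 112 ± 12.4 TPM in T166A and 70.4 ± 11.4 TPM in WT, above Atp6v0d2 at 50.4 ± 9.50 TPM in T166A and 58.7 ± 8.42 TPM in WT, and Nfatc1 at 42.1 ± 7.05 TPM in T166A and 32.8 ± 5.67 TPM in WT. The means of Acp5 and Ctsk in both genotypes, of Itgb3 and Atp6v0d2 in WT, and of Atp6v0d2 and Nfatc1 in T166A lay closer than the sum of their SDs. Far below were Ocstamp at 8.69 TPM in T166A and 5.65 TPM in WT, and Dcstamp at 6.44 TPM in T166A and 5.69 TPM in WT. Oscar had 1.39 TPM in T166A and 0.927 TPM in WT, and Calcr 0.0954 TPM in T166A and 0.0962 TPM in WT.

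In BMDM Atp6v0d2 was highest, at 113 ± 49.2 TPM in T166A and 105 ± 25.5 TPM in WT (SD, n = 3 each). Below it were Ctsk at 45.0 ± 10.6 TPM in T166A and 60.6 ± 7.88 TPM in WT, Acp5 at 42.0 ± 18.7 TPM in T166A and 41.0 ± 9.61 TPM in WT, and Dcstamp at 18.5 ± 9.24 TPM in T166A and 36.6 ± 16.5 TPM in WT. The means of Ctsk and Acp5 in T166A, and of Acp5 and Dcstamp in both genotypes, lay closer than the sum of their SDs. Nfatc1 had 22.2 TPM in T166A and 15.1 TPM in WT, from another isoform than in skin. Itgb3 had 6.09 TPM in T166A and 4.85 TPM in WT, and Ocstamp 0.302 TPM in T166A and 0.861 TPM in WT.

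Nfatc1 was listed with 6 isoforms, and the one with the highest counts was not the same in the sources. In skin it was an isoform with the upstream first exon that ends at the proximal 3′ end, and in BMDM one that extends to the distal 3′ end. The distal-end isoforms with the downstream and the upstream first exon had nearly the same total in BMDM (12428 and 12425 counts), so their first exons are not told apart by it. Such nearly equal totals mean that reads in shared exons appear to count for each isoform, so the values below are not levels of single isoforms. Counts listed for the isoform with the proximal end came to 86.3 ± 14.4 CPM in T166A skin and 35.7 ± 19.8 CPM in T166A BMDM. In WT they were 68.1 ± 11.2 CPM in skin and 23.7 ± 7.27 CPM in BMDM (SD, n = 6 in skin and 3 in BMDM). With the distal end they were 62.6 ± 9.68 CPM in T166A skin and 56.2 ± 18.1 CPM in T166A BMDM, and 51.4 ± 7.65 CPM in WT skin and 41.0 ± 7.12 CPM in WT BMDM. The fitted log2 fold change of skin over BMDM, which used the isoform with the proximal end, was 1.35 in T166A (SE 0.18, edgeR adjusted p = 1.91e-06) and 1.50 in WT (SE 0.18, edgeR adjusted p = 5.52e-07). Summed over isoforms, where a shared read can count more than once, it was 0.49 in T166A (edgeR adjusted p = 0.00477) and 0.61 in WT (edgeR adjusted p = 0.000807). The median of all genes in that fit was 0.42 in T166A and 0.40 in WT. With the length trend removed the Nfatc1 value was 0.57 in T166A (edgeR adjusted p = 0.00706) and 0.53 in WT (edgeR adjusted p = 0.0108). There the median of all genes was -0.10 in T166A and -0.15 in WT.

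The ratio of the proximal-end count to the distal-end count, which share their first exon, averaged 1.38 ± 0.0761 in T166A skin and 0.598 ± 0.175 in T166A BMDM, and 1.32 ± 0.0402 in WT skin and 0.569 ± 0.0843 in WT BMDM. Every skin library, at 1.26 to 1.49, was above every BMDM library, at 0.405 to 0.749. The exact permutation test (two-sided, 8 tests on these isoforms) gave p = 0.0238 between sources in each genotype, the smallest value that 6 against 3 libraries allow (Benjamini-Hochberg adjusted p = 0.0476). The isoform comparisons, here and below, were chosen after their values were seen. The isoform with the highest counts already differed between sources, so the p-values between sources give no independent support. Between genotypes the exact permutation p was 0.160 in skin (adjusted p = 0.256) and 0.8 in BMDM, where 0.1 is the smallest possible.

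For the first exons, the count with the downstream first exon was subtracted from that with the upstream one, between isoforms that share the proximal end. This net difference came to 3.45 ± 1.06 CPM in T166A skin and 3.01 ± 0.849 CPM in WT skin (SD, n = 6 each). In BMDM it was 0 or nearly 0, from -0.0917 to 0 CPM in T166A and from -0.0702 to 0.0998 CPM in WT. A net value near 0 does not show that the upstream first exon was unused there. The lowest of the 12 skin libraries had 2.15 CPM. The exact permutation p was 0.0238 between sources in each genotype (adjusted p = 0.0476), 0.424 between genotypes in skin (adjusted p = 0.566) and 0.6 in BMDM (adjusted p = 0.686).

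**Figure D5:**
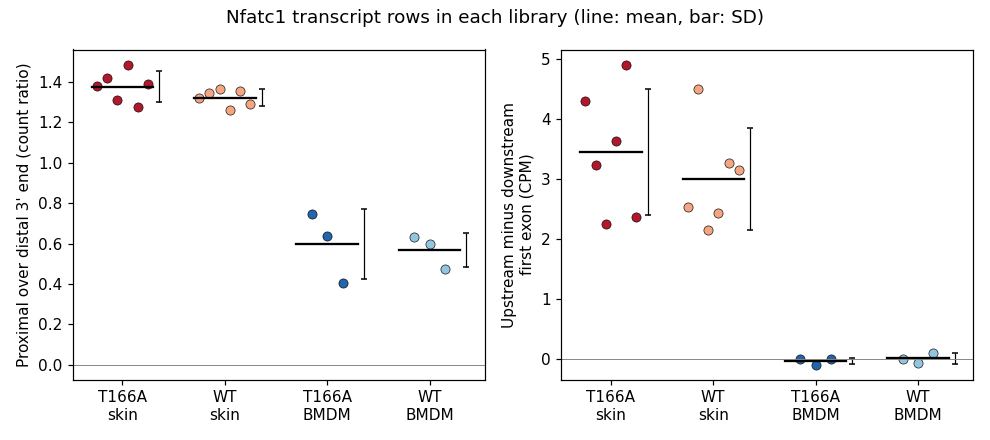
Isoforms of Nfatc1 in every library (points), with the group mean (line) and SD (bar), T166A left of WT: the ratio of counts of the isoforms with the proximal and the distal 3′ end (left), and the CPM with the upstream minus those with the downstream first exon (right). Skin libraries lie at a ratio of 1.26 to 1.49 and BMDM libraries at 0.405 to 0.749, and the net first exon difference is near 0 CPM in BMDM.

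Genes that act with the osteoclast genes were read from lists. In skin, of 16 tested receptors and signalling genes 1 was called higher in T166A, 7 lower and 8 neither, where 12.7% of all tested genes were called higher and 13.2% lower, with a median log2 fold change of -0.22 against 0.01 over all genes. Plcg2, the phospholipase that raises calcium downstream of the immune receptors, averaged 70.5 ± 5.14 CPM in T166A and 88.0 ± 4.31 CPM in WT (SD, n = 6 each), a log2 fold change of -0.41 (edgeR adjusted p = 6.11e-06). Csf1r, the receptor for M-CSF, averaged 1075 ± 42.8 CPM in T166A and 1262 ± 64.4 CPM in WT (-0.32, edgeR adjusted p = 0.000102). The inhibitory receptor gene Lilrb4a had 1106 ± 67.6 CPM in T166A and 1098 ± 57.9 CPM in WT and did not pass (-0.08, edgeR adjusted p = 0.325). Its fitted fold change, with TMM scaling, was negative although its CPM mean was higher in T166A. Macrophage markers fell likewise, 7 of 9 called lower and 0 higher, where 13.2% of all genes were called lower, with a sum of 9281 to 10110 CPM in T166A and 10280 to 12180 CPM in WT, and their part in these values was not tested.

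Transcription factors and repressors of osteoclast formation held 1 gene called higher, 8 lower and 7 neither of 16 in skin, beside 12.7% higher and 13.2% lower of all genes, with a median of -0.22. The genes with the smallest p were both repressors of osteoclast formation. Irf8 averaged 114.8 ± 13.9 CPM in T166A and 190.4 ± 15.2 CPM in WT (log2 fold change -0.82, SE 0.08, edgeR adjusted p = 1.51e-06). Id2 averaged 265.8 ± 23.5 CPM in T166A and 396.6 ± 27.2 CPM in WT (-0.66, SE 0.06, edgeR adjusted p = 6.83e-08). Nfkb1, a subunit of NF-kappaB that RANKL activates, averaged 1182 ± 30.0 CPM in T166A and 1393 ± 28.9 CPM in WT (-0.32, SE 0.05, edgeR adjusted p = 1.27e-05).

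The bone resorption machinery had 0 genes called higher, 9 lower and 8 neither of 17 in skin, with a median of -0.16, and again 12.7% of all genes were called higher and 13.2% lower. Plekhm1, which directs lysosomes to the resorbing membrane, averaged 142.0 ± 7.67 CPM in T166A and 179.8 ± 9.02 CPM in WT (-0.43, edgeR adjusted p = 2.16e-06). Atp6v1c1, a subunit of the proton pump, averaged 199 ± 15.8 CPM in T166A and 244.9 ± 11.1 CPM in WT (-0.39, edgeR adjusted p = 1.43e-05). The lysosomal protease gene Ctsb was also lower, at 7476 ± 262 CPM in T166A and 8418 ± 605 CPM in WT (-0.26, edgeR adjusted p = 0.00319), and so was Ctsd (-0.18, edgeR adjusted p = 0.0333). Macrophage fusion genes beyond the set had 0 called higher, 7 lower and 12 neither of 19, set beside the same shares of all genes, with a median of -0.09. Of these P2rx7, the ATP-gated channel, averaged 40.0 ± 1.86 CPM in T166A and 50.8 ± 4.00 CPM in WT (-0.43, edgeR adjusted p = 2.20e-05), and Sirpa, the receptor for CD47, 313.8 ± 5.00 CPM in T166A and 378.6 ± 28.7 CPM in WT (-0.36, edgeR adjusted p = 3.09e-05). Cd44, an adhesion receptor for hyaluronan, had a log2 fold change of -0.20 (edgeR adjusted p = 0.00390), and the interleukin 4 receptor gene Il4ra did not pass (-0.16, edgeR adjusted p = 0.109).

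The list of osteoclast ligands, which also holds receptors such as Ephb4, had 8 genes tested in skin. Of these 3 were called higher, 0 lower and 5 neither, where 12.7% of all genes were called higher and 13.2% lower. Their median log2 fold change was 0.32. Csf1, the gene of M-CSF, averaged 484.3 ± 24.1 CPM in T166A and 340.6 ± 13.5 CPM in WT (SD, n = 6 each), a log2 fold change of 0.42 (edgeR adjusted p = 8.81e-07). Il34, the other ligand of the M-CSF receptor, averaged 7.94 ± 1.24 CPM in T166A and 3.87 ± 0.837 CPM in WT (0.95, edgeR adjusted p = 3.70e-05). Sema4d, a semaphorin made by osteoclasts, did not pass (-0.19, edgeR adjusted p = 0.151).

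Of 9 osteoclast markers beyond the set, 2 were called higher and 2 lower in T166A skin, beside 12.7% higher and 13.2% lower of all genes. Several of them are already counted in the lists above, among them Tnfrsf11a, Clcn7 and Mmp9. Siglec15, a sialic acid receptor of osteoclasts, averaged 1.20 ± 0.148 CPM in T166A and 0.337 ± 0.249 CPM in WT (1.74, edgeR adjusted p = 0.00197), and Tnfrsf11a, the gene of the RANKL receptor, 122.8 ± 5.63 CPM in T166A and 100.6 ± 7.06 CPM in WT (0.20, edgeR adjusted p = 0.00702). Tm4sf19, a tetraspanin-like gene of osteoclasts, averaged 26.8 ± 5.25 CPM in T166A and 47.9 ± 2.84 CPM in WT (-0.93, edgeR adjusted p = 1.03e-05), and Clcn7, the chloride channel of the resorbing membrane, was also lower (-0.19, edgeR adjusted p = 0.00447). Mmp9, a gelatin-cutting protease, had 232.5 ± 46.8 CPM in T166A and 140.6 ± 48.5 CPM in WT and did not pass (0.64, edgeR adjusted p = 0.0745).

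In BMDM no gene of the related lists passed the edgeR test, with 16 tested in the signalling list, 16 in the transcription factor list, 17 in the resorption list, 18 in the fusion list and 4 in the ligand list. Of these 71, 11 had an unadjusted p under 0.05, where 12.8% of all genes did. DESeq2 called 9 of them and 3.04% of all genes, and limma-voom 3 of them and 1% of all genes. Closest to the threshold was Ccl2, a chemokine that promotes fusion, at 11.5 ± 1.67 CPM in T166A and 27.3 ± 3.07 CPM in WT (SD, n = 3 each; log2 fold change -1.28, edgeR adjusted p = 0.0556). Itgav, the alpha V partner of Itgb3, had 102.5 ± 5.93 CPM in T166A and 71.5 ± 6.94 CPM in WT (0.49, edgeR adjusted p = 0.203), and the protease gene Adam9 had 114.8 ± 4.97 CPM in T166A and 73.1 ± 5.68 CPM in WT (0.62, edgeR adjusted p = 0.139). Myc had 6.67 ± 3.05 CPM in T166A and 13.1 ± 4.77 CPM in WT (-1.06, edgeR adjusted p = 0.168), and Mmp9 had 9.73 ± 7.01 CPM in T166A and 25.5 ± 16.8 CPM in WT (-1.72, edgeR adjusted p = 0.175). Of the abundant genes of these lists, Ctsb had 16090 ± 1400 CPM in T166A and 15930 ± 1218 CPM in WT, and Csf1r 3537 ± 966 CPM in T166A and 3018 ± 528 CPM in WT (log2 fold changes -0.02 and 0.17, edgeR adjusted p = 0.963 and 0.715).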

How the data were processed

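The values were counts per RefSeq transcript, deposited by the authors without normalization, in 1 table for BMDM and 1 for skin. The submitters' processing notes name FastQC 0.12.1, cutadapt 4.4, HISAT2 2.2.1, featureCounts and mm10. How strand was set and how reads shared by isoforms or gene copies were counted is not given in these sources. Isoforms of a gene often held nearly equal totals, so sums over transcripts can hold a read more than once. Genes were assigned to 45749 of 45895 transcripts in BMDM and to 45697 of 45843 in skin through RefSeq (GRCm38.p6), and to 29 more in each through GENCODE. The remaining 117 in each held 0.514% of counts in BMDM and 0.187% in skin and were left out. For each gene the transcript with most CPM in total was used, chosen within a table for genotype tests and over both for tests between sources. No 2 libraries were identical. CPM were scaled to the counts of all genes, and TPM used the length of the chosen transcript.

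Groups, replicate numbers and batches came from the labels. Genotype was tested in each source alone (in BMDM with batch as a term), and source and interaction in 1 fit of all 18 libraries, by the robust quasi-likelihood test of edgeR 4.0.16 in R 4.3.3. This used TMM, filterByExpr (count of at least 10, total of at least 15) and Benjamini-Hochberg adjustment over the tested genes with a threshold of 0.05. Standard errors came from the fold change and the F statistic. Nfatc1 isoforms were compared by exact permutation tests. The fits were tested on simulated counts.

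The alternatives comprised RLE scaling, omission or tightening of the filter, DESeq2 1.42.0, voom weights in limma 3.58.1, sums over transcripts, removal of the trend with length, the replicate number as a block, omission of the batch term, B1 libraries only, adjustment for marker scores, and omission of each library in turn. In BMDM the main fit held the batch that the labels give, and replicate numbers were taken as pairs only in the replicate block. Same-numbered T166A and WT libraries correlated there at 0.2, 0.115 and 0.185 after group means were removed. Batch was not removed, so these values include what a batch shares.

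The genes, the lists of related genes and cell type markers, and the naming rule were chosen with earlier results of these data known. The rule took all 9 genes, from each related list the genes with the smallest p and the highest mean in each source (2 each), and the gene most similar to each over the skin libraries by log2 CPM with a prior count of 2. Further genes named from marker lists, the next genes most similar to Itgb3, and the Nfatc1 isoform comparisons were chosen after their values were seen. A gene that the rule took is not reported here.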

Additional observations from a re-analysis of the deposited data

Results flagged for a closer look

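Single libraries lay apart from the rest of their group in 2 of 18 sets of 6 skin values, 1 set for each of the 9 genes in each genotype. The sets share the same 12 libraries, and chance gives about 1 in 20 separate groups. Atp6v0d2 had 74.7 CPM in skin T166A replicate 3, the highest of its group, where the other T166A libraries had 46.8 to 53.9 CPM. Itgb3 had 225.4 CPM in skin WT replicate 2, the highest of its group, where the other WT libraries had 154.5 to 179.1 CPM.

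The genotype effects of both cell sources differed by the interaction test for 3 genes, where 14.3% of all 16586 genes were called. On the log2 scale the T166A over WT fold was higher in skin than in BMDM by 1.0 for Ctsk, 1.31 for Dcstamp and 2.38 for Ocstamp (edgeR adjusted p = 0.00423, 0.00527 and 0.0199). With limma-voom 0 of the 3 passed (adjusted p = 0.0532 for Ctsk, 0.0817 for Dcstamp and 0.456 for Ocstamp). In skin T166A exceeded the WT mean in 6 of 6 libraries for Ctsk, and in BMDM T166A was below the WT mean in 3 of 3 libraries for Ctsk, Dcstamp and Ocstamp. For Ocstamp, skin T166A replicate 3 (7.75 CPM) was below the WT skin mean (8.95 CPM). For Dcstamp, skin T166A replicates 3 and 6 (4.58 and 4.19 CPM) were below the WT skin mean (4.93 CPM).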

How the results depend on the processing

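All p-values rest on 3 or 6 libraries a group, and alternatives of the interaction and of the source contrast in T166A were chosen after seeing the data. In BMDM the number of all genes called, 9 with edgeR, was 105 without a filter, 16 with a stricter filter, 400 with DESeq2, 132 with limma-voom, 0 for sums over transcripts, 18 with the length trend removed, 0 without a batch term, 21 in batch B1 alone and 0 to 18 when 1 library was left out. With replicate numbers as a block it was 10, and no call among the osteoclast genes changed. Of those genes DESeq2 called 2 in BMDM and the other alternatives 0. Directions turned there without a call: Acp5 to 0.00839 with the length trend removed and 0.0909 in B1 alone (-0.30 to 0.0924 with 1 library left out), Atp6v0d2 to 0.13 with limma-voom and 0.13 in B1 alone (-0.23 to 0.13), and Itgb3 to -0.11 with the length trend removed (-0.15 to 0.38). In skin, of the osteoclast genes 1 was called without a filter, 5 with limma-voom, 6 with marker covariates, 3 with DESeq2, 3 for sums over transcripts and 1 to 6 with 1 library left out. Dcstamp ran from -0.0686 to 0.16 there. Skin numbers correlated at -0.0453 to 0.0902 between genotypes and were not used as pairs, and a replicate block called 3 (Acp5 added, adjusted p = 0.0246). For the interaction, limma-voom called 0 osteoclast genes and 950 of all genes, against 2365 with edgeR, and Nfatc1 turned to 0.0344 with the length trend removed (-0.43 to 0.10 with 1 library left out). Of all interaction calls 42.7% were higher, 32% with RLE size factors and 54.7% with the length trend removed. Of all WT source calls 57% were higher, and 45.8% with the length trend removed. Causes of these shifts were not tested. Depth limits Oscar and Calcr.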

Other observations

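Other cell type markers differed between genotypes in the skin fraction, where 12.7% of all tested genes were called higher in T166A and 13.2% lower. Of 5 tested adipocyte markers 4 were higher in T166A and 0 lower, with Adipoq, the gene of the fat cell hormone adiponectin, at 10.2 ± 2.30 CPM in T166A and 0.883 ± 0.349 CPM in WT (SD, n = 6 each; log2 fold change 3.44, edgeR adjusted p = 9.45e-09). The sum of the adipocyte list overlapped between genotypes, at 477.2 to 710.5 CPM in T166A and 441.6 to 625.9 CPM in WT. All 5 skeletal muscle markers were lower, with a sum of 22.2 to 31.8 CPM in T166A and 48.0 to 69.6 CPM in WT. Of 6 mast cell markers 1 (Kit) was higher and 3 lower, of 5 progenitor markers 3 were higher, of 7 dendritic and Langerhans cell markers 1 was higher and 1 lower, and of 4 tested neutrophil markers 2 were lower. Of 8 fibroblast markers 0 were called, of 8 keratinocyte markers 1 was lower (Krt15), and of 4 tested osteoblast markers 1 was higher (Alpl, log2 fold change 0.44, edgeR adjusted p = 0.0140). No marker of T and NK cells passed the low-count filter in skin. In BMDM 0 of 49 marker tests passed with edgeR, 8 had an unadjusted p under 0.05 (12.8% of all genes did), DESeq2 called 4 (3.04% of all genes) and limma-voom 1 (1% of all genes).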
